A study of Mus musculus with 2 samples.

Results

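CpG methylation was examined in 10 mouse genes that let-7 microRNAs are known to target, or that belong to insulin signalling or to microRNA processing. They are Igf2bp1, Igf2bp2, Igf2bp3, Hmga1, Hmga2, Lin28a, Lin28b, Insr, Igf1r and Dicer1, chosen by name out of 55413 annotated genes. The measurements are the CpG cytosines with at least 5 reads in each of 2 libraries, outside the recognition sites of the restriction enzymes MspI (CCGG) and TaqαI (TCGA), in the body of each gene or within 1 kb of its annotated start. Of 1850635 such cytosines in the genome, 2247 belonged to the 10 genes. The libraries were made by reduced representation bisulfite sequencing, which reads the ends of short restriction fragments after bisulfite has turned unmethylated cytosine into uracil. The DNA came from myotubes, the fused muscle cells that C3H mouse myoblasts form in culture, harvested 48 h after transfection with a control small interfering RNA (siCon) or with siH19, which targets H19, a long non-coding RNA. Both groups were differentiated and transfected alike and differed in the small interfering RNA alone, and each was represented by 1 library. The siCon library held 104999613 reads summed over cytosines and the siH19 library 106372792, with median depths of 12 and 13 reads per cytosine over all entries.

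There were no replicates. Every test therefore compares 2 libraries and not 2 conditions, and a difference between cultures cannot be told apart from an effect of the small interfering RNA. RNA was not analysed here, so the knockdown of H19, the level of each gene and the cell label were not checked on RNA. Of 8 muscle marker genes, 5 had a promoter with enough covered cytosines, with levels from 3.98% to 72.7% in siCon and 5.00% to 80% in siH19, and of 6 markers of other cell types only 1 did, at 59.3% in siCon and 65.5% in siH19. Promoter methylation does not name a cell type.

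The let-7 family is a group of microRNAs that rise as cells differentiate and that repress messenger RNAs carrying a match to the microRNA seed, the bases near its 5′ end that lead target recognition. Its best known targets include the high mobility group gene Hmga2, the insulin-like growth factor 2 messenger RNA-binding proteins and the Lin28 genes, whose proteins in turn block the maturation of let-7 precursors. H19 is known as a muscle-rich RNA that can bind let-7, which is why these genes are of interest in cells with less H19. Methylation of CpGs around a gene's start is usually low where the start lies in an active CpG island, and methylation within gene bodies is usually high.

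The mature let-7 sequences are shown because their shared seed defines the group of genes. Of 11 mouse family members in RefSeq, 10 carried the seed GAGGUAG at bases 2 to 8, written here in capitals, and let-7j differed from them in that stretch. Given from 5′ to 3′ are 4 sequences with the shared seed, and let-7j.
let-7a-5p: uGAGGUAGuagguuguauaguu
let-7d-5p: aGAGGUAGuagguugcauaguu
let-7g-5p: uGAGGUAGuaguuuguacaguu
miR-98-5p: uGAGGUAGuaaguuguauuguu
let-7j: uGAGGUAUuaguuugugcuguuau

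The match to this seed in a messenger RNA is CTACCTC, searched on the sense strand of the longest annotated 3′ untranslated region of each gene. It was present in 9 of the 10 genes, against 8.70% of 21742 protein-coding genes, and the longer match CTACCTCA, which contains it, was present in 8 of 10 against 2.95%. The untranslated regions of the 10 genes were long, with a median of 3436 bases against 913 over all genes. Igf2bp1, Hmga2 and Lin28b had 4 matches each, Lin28a and Igf1r had 2, and Igf2bp2, Igf2bp3, Hmga1 and Insr had 1. Dicer1 had none in 3854 bases. The genes were chosen as let-7 targets, so these counts describe the choice, and a match is a description of sequence and not a shown site. One 23-base stretch is shown for each of 8 genes, with the match in capitals together with a following A.
Igf2bp1 (chr11:95961778-95961800, minus strand): gctgtgcgaagtaaaCTACCTCA
Igf2bp2 (chr16:22059473-22059495, minus strand): acacacaaataaaagCTACCTCA
Hmga1 (chr17:27563277-27563299, plus strand): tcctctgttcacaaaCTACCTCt
Hmga2 (chr10:120364224-120364246, minus strand): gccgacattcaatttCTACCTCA
Lin28a (chr4:134005189-134005211, minus strand): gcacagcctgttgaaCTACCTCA
Lin28b (chr10:45381022-45381044, minus strand): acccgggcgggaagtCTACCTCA
Insr (chr8:3153198-3153220, minus strand): tcttctcagtacagtCTACCTCA
Igf1r (chr7:68229110-68229132, plus strand): ttttcaaacatttatCTACCTCA

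The main comparison asked whether these genes differed in methylation between siCon and siH19. Methylation was higher in siH19 upstream of the start of Hmga1, which encodes a DNA-bending chromatin protein, and no other gene of the group had a promoter with an adjusted p-value under 0.05. The promoter level of Hmga1 was 8.03% in siCon and 11.6% in siH19. The gap did not pass after adjustment when restriction fragment strands rather than cytosines were the units, where 0% of promoters in the genome were called. No promoter, gene body or CpG island of the 10 genes was called, which needed both an adjusted p-value below 0.05 and 10 percentage points of difference. This was 0 of 10 promoters, where 0.606% of 19476 promoters in the genome were called, 0 of 10 gene bodies, where 0.352% of 23274 were called, and 0 of 24 CpG islands, where 1.02% of 25755 were called. With shares this low in the genome, a count of 0 among 10 to 24 regions is close to the background. Without the minimum difference, 1 promoter (Hmga1, background 6.82%), 1 gene body (Igf2bp2, background 3.48%) and 1 island (at Hmga1, background 5.4%) had an adjusted p-value under 0.05. At an unadjusted p-value under 0.05 there were 3 promoters (background 19.7%), 1 gene body (background 15.9%) and 7 islands (background 17.9%). Each region was tested by an exact Mantel-Haenszel test of methylated against unmethylated reads stratified by cytosine, with adjustment over all regions of its kind. Differences given as stratified come from the same strata and are siH19 minus siCon in percentage points, with a 95% interval that covers counting error only.

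**Figure D1:**
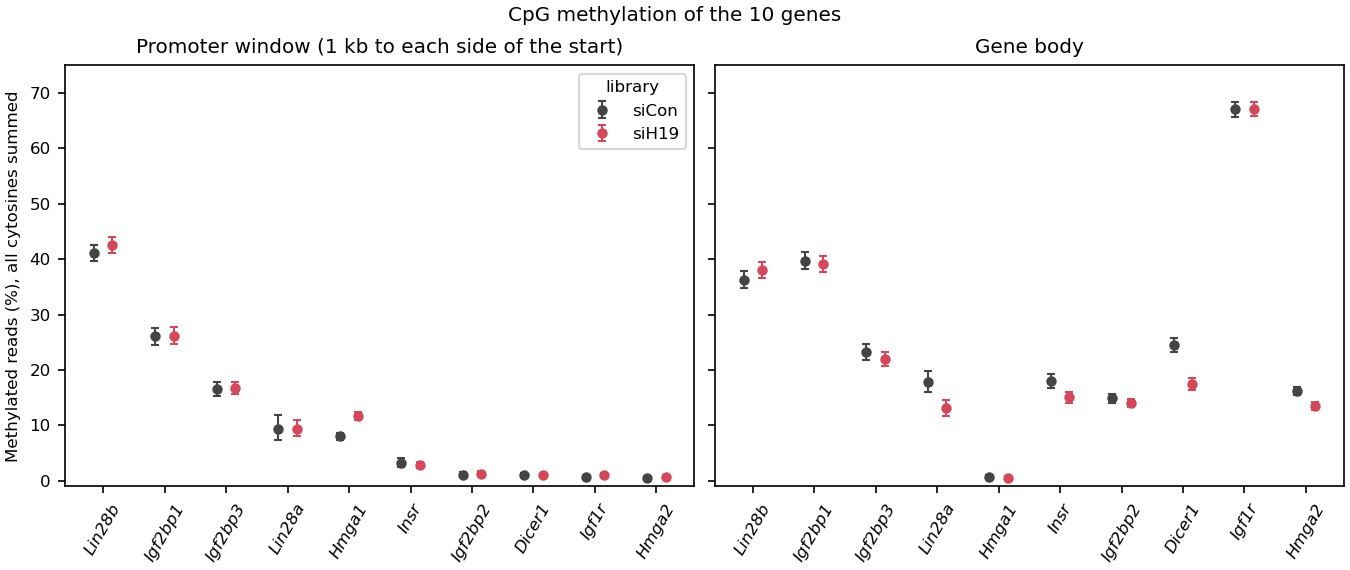
Share of methylated reads in percent, summed over all covered cytosines, in the promoter window (left) and the gene body (right) of each gene, with siCon in grey, siH19 in red and Wilson 95% binomial intervals as bars. Genes are ordered by their siCon promoter level, from 41.0% in Lin28b to 0.492% in Hmga2, and the summed-read gaps seen in the bodies of Dicer1, Insr, Lin28a and Hmga2 had intervals that included 0 when reads were compared cytosine by cytosine.

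The 10 promoters ranged from partly methylated to almost unmethylated. In siCon, Lin28b stood at 41.0%, Igf2bp1 at 26.1%, Igf2bp3 at 16.6%, Lin28a at 9.36% and Hmga1 at 8.03%. Insr stood at 3.27%, Igf2bp2 at 1.10%, Dicer1 at 1.08%, Igf1r at 0.616% and Hmga2 at 0.492%. The order in siH19 had Lin28b, Igf2bp1, Igf2bp3, Hmga1, Lin28a, Insr, Igf2bp2, Igf1r, Dicer1 and Hmga2. Among neighbours in the siCon order, the Wilson 95% intervals of Lin28a (7.39% to 11.8%) and Hmga1 (7.44% to 8.67%) overlapped, as did those of Igf2bp2 (0.781% to 1.53%), Dicer1 (0.859% to 1.36%), Igf1r (0.414% to 0.915%) and Hmga2 (0.325% to 0.743%), each with the next. The intervals of Lin28b, Igf2bp1, Igf2bp3 and Insr were apart from their neighbours. Over all tested promoters in the genome the median was 3.86% in siCon and 3.83% in siH19, with a 75th percentile of 28.9% in siCon, and Lin28b lay above it. CpG density did not follow this order. The ratio of observed to expected CpGs in the window was 1.10 in Lin28b, 0.905 in Igf2bp3 and 0.772 in Igf2bp1, against 0.901 in Igf1r, 0.889 in Dicer1 and 0.788 in Hmga2.

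**Figure D2:**
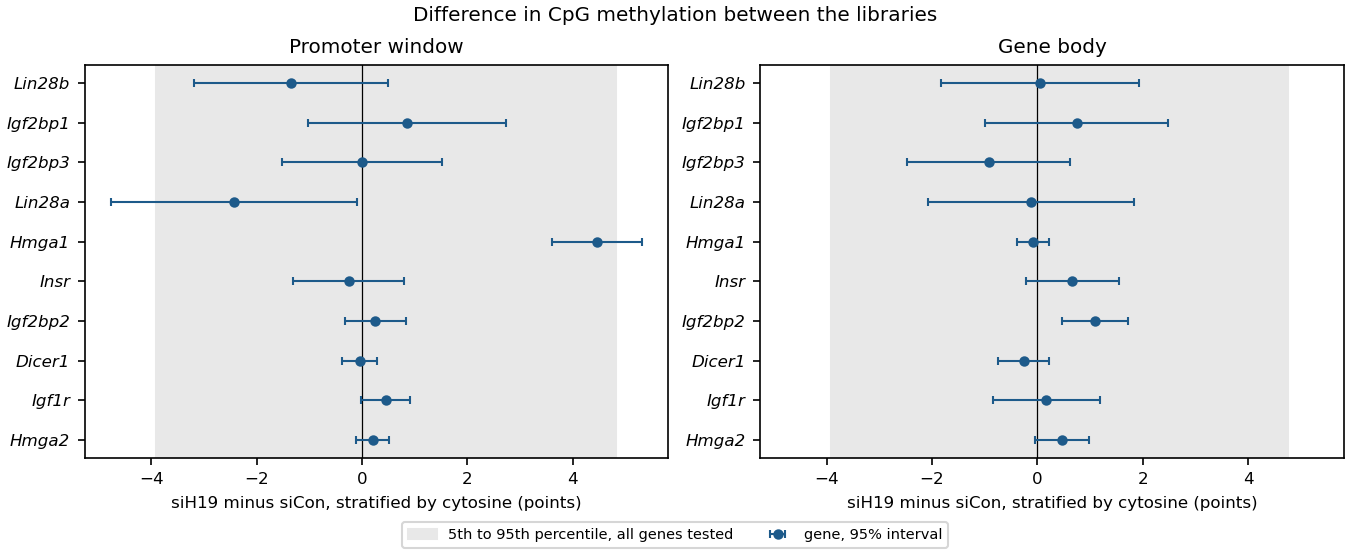
Stratified difference in methylation, siH19 minus siCon in percentage points, for the promoter window (left) and the body (right) of each gene, with 95% intervals as bars and the 5th to 95th percentile of all genes tested as a grey band (-3.91 to 4.81 points for promoters). The Hmga1 promoter, at 4.46 points, is the gene farthest from 0, and it lies inside the band.

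Hmga1 (chr17:27556497-27563674, plus strand) had the clearest difference between the libraries. Its promoter window held 216 covered cytosines with 7505 reads in siCon and 7958 in siH19. The level was 8.03% (Wilson 95% interval 7.44% to 8.67%) in siCon and 11.6% (11.0% to 12.4%) in siH19. The stratified difference was 4.46 points (3.60 to 5.31), with an adjusted p of 1.11e-20 in the exact Mantel-Haenszel test. This was the 3rd lowest p of 19476 promoters, but a difference of this size was common, since 9.82% of promoters differed by as much. The CpG island that spans the start (chr17:27555010-27558068) differed by 4.35 points (3.55 to 5.14), the 2nd lowest p of 25755 islands. When the strand of a restriction fragment was the unit, which allows for many cytosines being read on the same molecules, the promoter had an adjusted p of 0.447 and the island 0.133 in a quasi-binomial test. Their unadjusted p-values in that test were the 3rd lowest of 12968 promoters and the lowest of 11941 islands, so no island in the genome passed. With each fragment strand counted once, a setting added after the values were seen, the promoter differed by 4.37 points (1.65 to 7.09) with an unadjusted exact p of 0.00208 and an adjusted p of 1. Under either setting 0% of promoters and 0% of islands in the genome were called.

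The Hmga1 difference lay upstream of the start. The division into stretches and fragments was made after the values were seen. The 103 cytosines upstream of the start stood at 17.6% in siCon and 26.9% in siH19, a stratified difference of 10.8 points (8.85 to 12.8). Of these cytosines 69 were higher in siH19, 30 were lower and 4 were equal. The 145 cytosines from the start onward stood at 0.746% and 0.574%, a difference of -0.0873 points (-0.391 to 0.217). The upstream stretch also belongs to the first part of Gm49774, an antisense non-coding gene (chr17:27545707-27556518, minus strand), so it cannot be assigned to the promoter of Hmga1 alone. Cytosines of the plus strand were higher by 15.9 points (13.2 to 18.7) and those of the minus strand by 4.91 points (1.99 to 7.83).

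**Figure D3:**
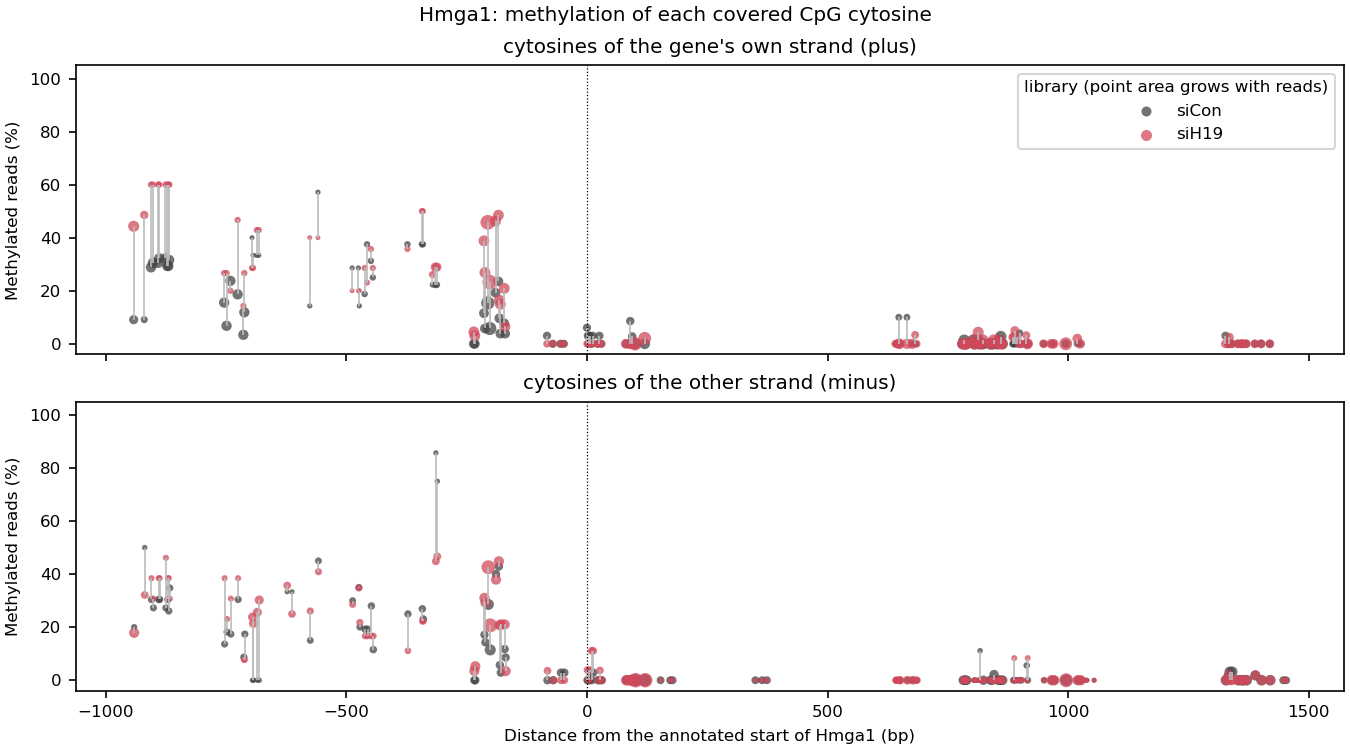
Methylated reads in percent at each covered CpG cytosine of Hmga1, plotted against distance from the annotated start in bp, for the plus strand (top) and the minus strand (bottom), with siCon in grey, siH19 in red, a line joining the libraries and point area growing with reads. From the start onward nearly every point lies near 0 in both libraries, while the upstream plus strand shows siH19 above siCon at its far end and close to the start.

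Within the upstream stretch the difference came from separate restriction fragments. The 3 fragments farthest from the start were higher in siH19. The first of them (chr17:27555517-27555586) stood at 14.6% in siCon and 35.4% in siH19, the next (chr17:27555587-27555788) at 23.5% and 39.4%, and the next (chr17:27555789-27555840) at 14.5% and 27.9%. The 4 covered fragments from -623 to -311 differed by -4.83 to 1.02 points, each with an interval that included 0. The minus strand of the last of them alone went the other way, from 80% of 15 reads to 45.8% of 59. The fragment nearest the start that differed (chr17:27556257-27556332) stood at 11.9% in siCon and 25.4% in siH19, with 22 of its 24 cytosines higher in siH19 and 2 lower. On its plus strand all 12 cytosines were higher, from 9.09% over 726 reads to 26.1% over 923. On its minus strand 10 of 12 were higher, from 16.0% over 489 reads to 24.7% over 807.

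The sequences of 3 upstream fragments that were higher in siH19 are shown, read from the plus strand of GRCm38, with every CpG in capitals. They carry CpGs on which the Hmga1 result rests, and each begins just after the cut of an MspI site.
Hmga1 fragment chr17:27555517-27555586: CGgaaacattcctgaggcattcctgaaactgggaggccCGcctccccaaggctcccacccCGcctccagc
Hmga1 fragment chr17:27555587-27555788: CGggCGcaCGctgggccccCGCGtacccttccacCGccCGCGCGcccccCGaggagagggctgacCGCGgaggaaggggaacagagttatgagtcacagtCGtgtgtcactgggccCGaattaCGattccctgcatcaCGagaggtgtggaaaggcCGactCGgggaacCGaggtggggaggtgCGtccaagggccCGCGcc
Hmga1 fragment chr17:27556257-27556332: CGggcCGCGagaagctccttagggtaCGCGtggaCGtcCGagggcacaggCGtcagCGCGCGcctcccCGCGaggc

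Few molecules lay behind some of these values. On the plus strand of the 202-base fragment of Hmga1, the 14 cytosines had a median of 59 reads in siCon and 15 in siH19, and each of the 8 nearest its upstream end was methylated in 9 of 15 reads in siH19, or 60.0%. Counted once per fragment strand at the median depth, that strand had an exact Fisher p of 0.109. The plus strand of the 70-base fragment had 9.09% in siCon and 45.7% in siH19 with p = 0.000299 in the exact Fisher test, while its minus strand had 30.4% and 22.6% with p = 0.485. The plus strand of the 76-base fragment had p = 0.0332 and its minus strand p = 0.603 in the same exact test. These p-values are unadjusted and were computed for fragments chosen after their values were seen.

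Single cytosines of Hmga1 also stood out. The plus-strand cytosine 206 bases upstream of the start (chr17, position 27556291) was methylated in 15.4% of 104 reads in siCon and 45.8% of 131 reads in siH19. Its adjusted p was 0.0216 in Fisher's exact test, adjusted over all 1850635 cytosines, and it was the 1 cytosine of the 10 genes under 0.05. In the genome 0.00648% of cytosines were under 0.05. Its depth was 2 times the median of its fragment strand in siCon and 1.96 times in siH19. With its counts halved, the exact Fisher p rose from 6.50e-07 to 0.000658. Its difference of 30.4 points was under the 33 points that defined a strong change.

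Hmga2 (chr10:120361275-120476469, minus strand), the related chromatin protein and the textbook let-7 target, was unmethylated in its promoter window in both libraries. Its promoter window of 150 cytosines stood at 0.492% in siCon and 0.695% in siH19, a stratified difference of 0.205 points (-0.108 to 0.517). The start itself was not measured. The stretch around it (chr10:120476420-120476719) holds 12 CpGs and had 0 covered cytosines. In the 500 bases before the start 4 cytosines were covered, at 0% in both libraries. The island over the start stood at 0.454% and 0.799%, a difference of 0.294 points (0.0401 to 0.549) with an adjusted p of 0.216 in the exact Mantel-Haenszel test. An intron island 2003 bases into the gene stood at 1.10% and 0.167%. Deep in the gene, intron islands were methylated, at 81.8% and 72.0%, 94.7% and 98.3%, and 96.8% and 98.1%. Their stratified differences were 1.26 points (-12.4 to 14.9), 3.95 points (-1.04 to 8.94) and 1.28 points (-3.61 to 6.18). The 111 cytosines beyond 20 kb stood at 55.8% in siCon and 61.1% in siH19, yet the stratified difference was 1.31 points (-0.599 to 3.22). An intron cytosine (position 120432237, plus strand) stood at 83.3% of 6 reads in siCon and 27.3% of 11 reads in siH19, with an unadjusted exact Fisher p of 0.0498. Its partner on the other strand of the same CpG stood at 50% and 47.1%.

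The insulin-like growth factor 2 messenger RNA-binding proteins differed widely among themselves. Igf2bp1 (chr11:95957163-96005940, minus strand) had a promoter at 26.1% (24.6% to 27.6%) in siCon and 26.2% (24.7% to 27.8%) in siH19 over 142 cytosines, with a stratified difference of 0.857 points (-1.02 to 2.73). Its level rose across the start. It was 12.2% in siCon and 9.27% in siH19 in the 500 bases before the start, 32.6% and 33.6% in the first 500 bases, 42.7% and 46.8% in the next 500 and 62.8% and 64.1% in the second kilobase. The island that spans the start stood at 41.2% and 43.2%, and the neighbouring island upstream at 13.3% and 12.7%. The antisense gene Gm29202 and the unclassified transcript Gm37179 overlap the same window. An intron island of Igf2bp1 (chr11:95994957-95995158) stood at 60.1% in siCon and 49.6% in siH19. Its stratified difference was -10.4 points (-19.4 to -1.45) over 6 cytosines, with an adjusted p of 0.207 in the exact Mantel-Haenszel test, so it did not pass. A further intron island stood at 12.7% and 10.1%. The strongly changed cytosine with the lowest p (position 95980098, plus strand, intron) stood at 44.4% of 36 reads in siCon and 90% of 20 in siH19, with an unadjusted exact Fisher p of 0.00131 and an adjusted p of 0.781. Its partner stood at 51.6% and 67.5%. A cytosine in a non-coding exon (position 95957298, plus strand) stood at 60.0% of 5 reads and 0% of 9 reads, with an unadjusted exact p of 0.0275, and its partner at 0% of 26 and 0% of 24 reads.

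Igf2bp2 (chr16:22059009-22163299, minus strand) had an unmethylated promoter, at 1.10% in siCon and 1.27% in siH19 over 106 cytosines, or 0.252 points higher when stratified (-0.325 to 0.830). Its body was the only one of the 10 with an adjusted p under 0.05, at 0.0269 in the exact Mantel-Haenszel test. The body level was 14.9% (14.1% to 15.7%) in siCon and 14.0% (13.2% to 14.8%) in siH19, so summed reads were lower in siH19, while the stratified difference was 1.09 points higher (0.470 to 1.71). The unweighted mean of cytosine levels was 23.3% in siCon and 24.8% in siH19, so the sign turned when reads were summed. With the fragment strand as the unit the body of Igf2bp2 had an adjusted p of 0.592 in the quasi-binomial test, where 0% of bodies in the genome were called. Without its promoter window it had an adjusted p of 0.0730 in the exact test. Part of this body result lay in an island over a coding exon (chr16:22161237-22162395), which stood at 1.19% and 2.13%, a difference of 0.941 points (0.333 to 1.55) with an adjusted p of 0.0532. The 68 cytosines beyond 20 kb stood at 69.2% and 65.4%, with a stratified difference of 2.44 points (-0.367 to 5.25). None of the 257 cytosines of Igf2bp2 was strongly changed.

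Igf2bp3 (chr6:49085223-49214957, minus strand) had an intermediate promoter level of 16.6% (15.3% to 17.9%) in siCon and 16.8% (15.7% to 17.9%) in siH19 over 135 cytosines, and when stratified they differed by 0.00489 points (-1.52 to 1.53). The island over its start stood at 17.7% and 17.4%. The 20 cytosines between 500 and 1000 bases upstream stood at 20.1% and 24.1%, a stratified difference of 4.32 points (0.312 to 8.32), a bin singled out after its values were seen. At 2 plus-strand cytosines of a coding exon (positions 49214348 and 49214361), none of 10 reads was methylated in siCon, while 66.7% and 55.6% of 18 reads were in siH19. The unadjusted exact Fisher p-values were 0.000883 and 0.00387, with an adjusted p of 0.670 for the first. Between them lay a pair of cytosines at 20% in siCon and 55.6% in siH19 with the same 10 and 18 reads. Counted once at the median depth, that fragment strand had an unadjusted exact Fisher p of 0.114. An intron cytosine (position 49181167, minus strand) went the other way, from 60.0% of 40 reads to 26.3% of 38, with an unadjusted exact p of 0.00329. Its partner stood at 63.6% and 45.5%.

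The promoter sequences of Igf2bp3 and Dicer1 are shown as the intermediate and the unmethylated case, from 250 bases before to 50 after a start in the RefSeq promoter table, on GRCm38.p6, 5′ to 3′ on the gene's own strand (minus for both), with CpGs in capitals. In neither gene is this the outermost RefSeq start. The first holds 25 CpGs and its 18 covered cytosines stood at 14.6% in siCon and 12.0% in siH19. The second holds 49 CpGs and its 57 covered cytosines stood at 0.837% and 0.392%.
Igf2bp3 promoter chr6:49214905-49215204: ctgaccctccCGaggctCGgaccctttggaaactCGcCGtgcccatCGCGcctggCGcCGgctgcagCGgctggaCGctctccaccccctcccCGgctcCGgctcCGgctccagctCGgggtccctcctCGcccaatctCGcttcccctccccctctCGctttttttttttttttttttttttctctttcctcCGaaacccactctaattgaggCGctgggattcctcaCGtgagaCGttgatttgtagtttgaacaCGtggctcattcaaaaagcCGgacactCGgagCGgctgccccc
Dicer1 promoter chr12:104751903-104752202: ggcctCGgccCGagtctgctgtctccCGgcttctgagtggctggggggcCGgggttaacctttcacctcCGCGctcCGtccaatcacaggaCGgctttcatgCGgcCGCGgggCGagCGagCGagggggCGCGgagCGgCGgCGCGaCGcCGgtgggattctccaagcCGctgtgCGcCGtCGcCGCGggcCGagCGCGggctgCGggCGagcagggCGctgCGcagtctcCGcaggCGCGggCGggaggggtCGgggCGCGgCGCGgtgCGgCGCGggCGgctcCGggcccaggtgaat

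The Lin28 genes encode RNA-binding proteins that block let-7 maturation. Lin28b (chr10:45376620-45486395, minus strand) had the most methylated promoter of the 10, at 41.0% (39.6% to 42.5%) in siCon and 42.6% (41.2% to 44.0%) in siH19 over 194 cytosines. The stratified difference was -1.35 points (-3.20 to 0.499). The whole window was methylated, at 90.3% and 87.5% farthest upstream, 38.6% and 34.5% in the 500 bases before the start, 34.8% and 34.4% in the 500 after it and 44.8% and 48.5% in the next 500. This start comes from the gene record, and the window around the RefSeq gene start, 81 bases downstream of it, held the same 194 cytosines. The coding transcript of the basic annotation starts 16194 bases downstream of the gene record's start. Only 2 cytosines were covered within 1 kb there, at 4.26% of 47 reads in siCon and 2.86% of 35 in siH19. An intron island of Lin28b (chr10:45473680-45474117) stood at 40.6% and 38.0%, and its stratified difference was 4.79 points (0.244 to 9.34) with an adjusted p of 0.256 in the exact Mantel-Haenszel test. None of the 229 cytosines of Lin28b was strongly changed.

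Lin28a (chr4:134003330-134018841, minus strand) was thinly covered, with 25 cytosines in its promoter window, at 9.36% (7.39% to 11.8%) in siCon and 9.44% (8.09% to 11.0%) in siH19. The stratified difference was -2.43 points (-4.76 to -0.0977), with an unadjusted exact Mantel-Haenszel p of 0.0383 and an adjusted p of 0.219, so it did not pass. Depth differed here, with 673 reads in siCon and 1568 in siH19. The difference sat in an island over a coding exon (chr4:134017797-134018387), at 14.0% and 9.44%, a difference of -4.95 points (-9.23 to -0.672) with an adjusted p of 0.141. The transcript Gm13061 overlaps this window on the other strand. With a window of 500 bp to each side, the stratified difference was 1.22 points (-0.829 to 3.27), and with 2 kb it was -1.36 points (-3.18 to 0.451). Around the RefSeq start of Lin28a, farther upstream, it was 0.382 points (-1.48 to 2.25) over 13 cytosines. The sign thus depended on the window. None of the 74 cytosines of Lin28a was strongly changed.

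The receptors were unmethylated at their starts. Insr (chr8:3122061-3279617, minus strand), the insulin receptor, stood at 3.27% (2.56% to 4.16%) in siCon and 2.79% (2.24% to 3.46%) in siH19 over 60 promoter cytosines, with a stratified difference of -0.252 points (-1.30 to 0.795). The island over its start covered the same cytosines. A further, intron island of Insr (chr8:3220765-3221627), 58421 bases from the start, was unmethylated as well, at 2.97% and 2.48% over 28 cytosines. The coding exons outside the promoter stood at 80.9% and 84.5%, with a stratified difference of -1.10 points (-6.35 to 4.16). An intron cytosine (position 3157593, minus strand) stood at 42.9% of 7 reads and 100% of 8 reads, with an unadjusted exact Fisher p of 0.0256.

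Igf1r (chr7:67952827-68233668, plus strand), the receptor for insulin-like growth factor 1, had an unmethylated start and a largely methylated body. Its promoter stood at 0.616% (0.414% to 0.915%) in siCon and 0.998% (0.711% to 1.40%) in siH19 over 146 cytosines, and its body at 67.0% and 67.1% over 271. The stratified differences were 0.450 points (-0.00798 to 0.908) for the promoter, with an unadjusted exact Mantel-Haenszel p of 0.0473 and an adjusted p of 0.247, and 0.173 points (-0.844 to 1.19) for the body. The island over the start stood at 0.718% and 0.985%, and the next island in the first intron at 0.344% and 0.759%. Islands farther into Igf1r were almost fully methylated, at 100% and 96.1%, 97.0% and 96.4%, and 97.8% and 97.3%. Coding exons outside the promoter stood at 94.95% and 94.2%. Igf1r had 5 strongly changed cytosines, 3 higher and 2 lower. The one with the lowest p that was higher (position 68219158, plus strand) stood at 33.3% of 6 reads in siCon and 100% of 24 in siH19, with an unadjusted exact Fisher p of 0.000547 and an adjusted p of 0.556. The lower one (position 68215773, minus strand) stood at 42.1% of 19 reads and 0% of 18, with an unadjusted exact p of 0.00309, and its partner at 53.3% of 15 reads and 20% of 10.

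Dicer1 (chr12:104687742-104751952, minus strand) encodes the enzyme that cuts microRNA precursors, let-7 among them. Its promoter stood at 1.08% (0.859% to 1.36%) in siCon and 0.980% (0.784% to 1.22%) in siH19 over 130 cytosines with 6661 and 7756 reads. By median reads per cytosine, 47 in siCon and 56 in siH19, it was the deepest promoter window of the group. The stratified difference was -0.0451 points (-0.371 to 0.281). The island over its start stood at 0.692% and 0.415%, a difference of -0.341 points (-0.594 to -0.0870) with an adjusted p of 0.106 in the exact Mantel-Haenszel test. The 8 cytosines between 500 and 1000 bases upstream stood at 9.12% in siCon and 15.8% in siH19, a stratified difference of 6.86 points (1.53 to 12.2), a bin singled out after its values were seen. Beyond 20 kb the gene was methylated at 93.9% and 93.1%. None of the 185 cytosines of Dicer1 was strongly changed.

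**Figure D4:**
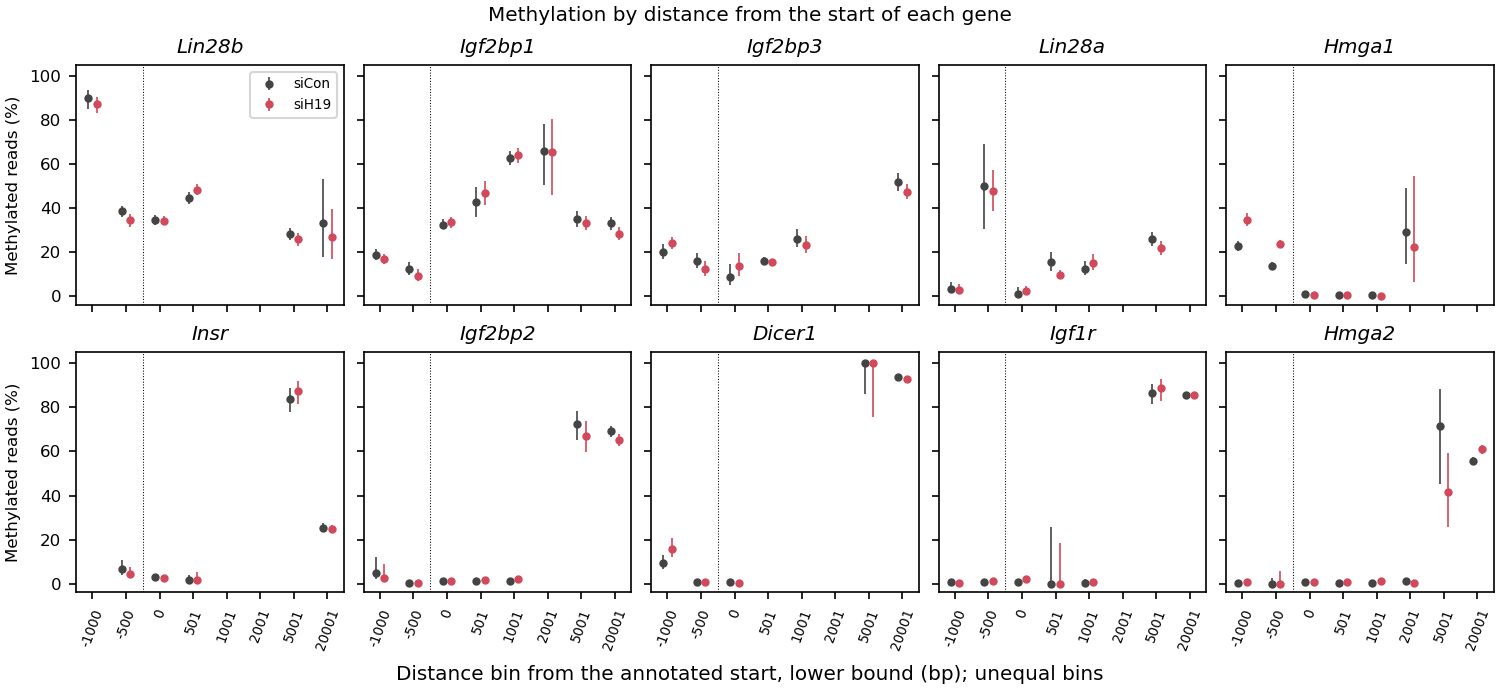
Methylated reads in percent for siCon (grey) and siH19 (red) in bins of distance from the annotated start (dotted line), 1 panel per gene, with Wilson 95% intervals and unequal bins named by their lower bound in bp. Igf2bp2, Dicer1, Igf1r, Hmga2 and Insr lie near 0 around the start and rise farther in, Lin28b, Igf2bp1 and Igf2bp3 are methylated around the start, and in the farthest upstream bin siH19 lies above siCon in Hmga1 (23.0% and 34.9%) and, by less, in Dicer1 and Igf2bp3.

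Taking all 10 genes as one set of 2247 cytosines, the stratified difference was 0.709 points (0.425 to 0.994), where the same measure over the whole genome was 0.244 points. As a share of summed reads the set stood at 21.4% in siCon and 20.6% in siH19, so the sign turned with the weighting of cytosines. Without the 248 cytosines of Hmga1, likewise added after the values were seen, the stratified difference was 0.235 points (-0.0729 to 0.543). The interval of the set thus excluded 0 with Hmga1 and included it without. By feature, the promoter windows together stood at 10.5% in siCon and 11.2% in siH19, introns outside them at 32.5% and 31.1%, and coding exons outside them at 80% and 78.7%. The stratified differences were 0.736 points (0.385 to 1.09) in promoters, 0.730 points (0.202 to 1.26) in introns and -0.304 points (-1.48 to 0.870) in coding exons.

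Gene bodies looked different when reads were simply summed. Dicer1 then fell from 24.5% to 17.4%, Lin28a from 17.8% to 13.1%, Insr from 18.0% to 15.1% and Hmga2 from 16.1% to 13.5%, each with an adjusted p under 0.05 in Fisher's exact test on summed reads. The share of bodies in the genome under that threshold is not given here. With a difference of 10 points also required, 0 of the 10 bodies passed that test, where 8.44% in the genome did. Compared cytosine by cytosine, the bodies of the 4 genes that fell differed by -0.261 points (-0.742 to 0.220) in Dicer1, -0.126 points (-2.08 to 1.83) in Lin28a, 0.666 points (-0.214 to 1.55) in Insr and 0.460 points (-0.0521 to 0.971) in Hmga2. In these bodies the libraries spread their reads differently over methylated and unmethylated cytosines. The remaining bodies stood at 39.8% and 39.1% in Igf2bp1, 36.3% and 38.0% in Lin28b, 23.2% and 21.9% in Igf2bp3 and 0.746% and 0.574% in Hmga1.

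A cytosine was strongly changed where its unadjusted Fisher p-value was below 0.05 and the libraries were 33 or more points apart, the threshold used in the study. There were 15 among the 2247 cytosines, or 0.668%, where 0.986% of cytosines in the genome passed. Of these, 10 were higher in siH19, where 0.519% of cytosines in the genome were, and 5 were lower, where 0.467% were. At an unadjusted p-value under 0.05 alone there were 59, or 2.63%, against 2.53% in the genome. Igf1r held 5, Igf2bp1 and Igf2bp3 held 3 each, Hmga1 held 2, and Hmga2 and Insr held 1 each. The Hmga1 cytosines (positions 27555555 and 27555577, plus strand) lay on the 70-base fragment. The first stood at 9.09% of 44 reads in siCon and 44.3% of 70 in siH19 with an unadjusted exact p of 5.59e-05 and an adjusted p of 0.213, and its partner on the minus strand at 20% and 17.9%.

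**Figure D5:**
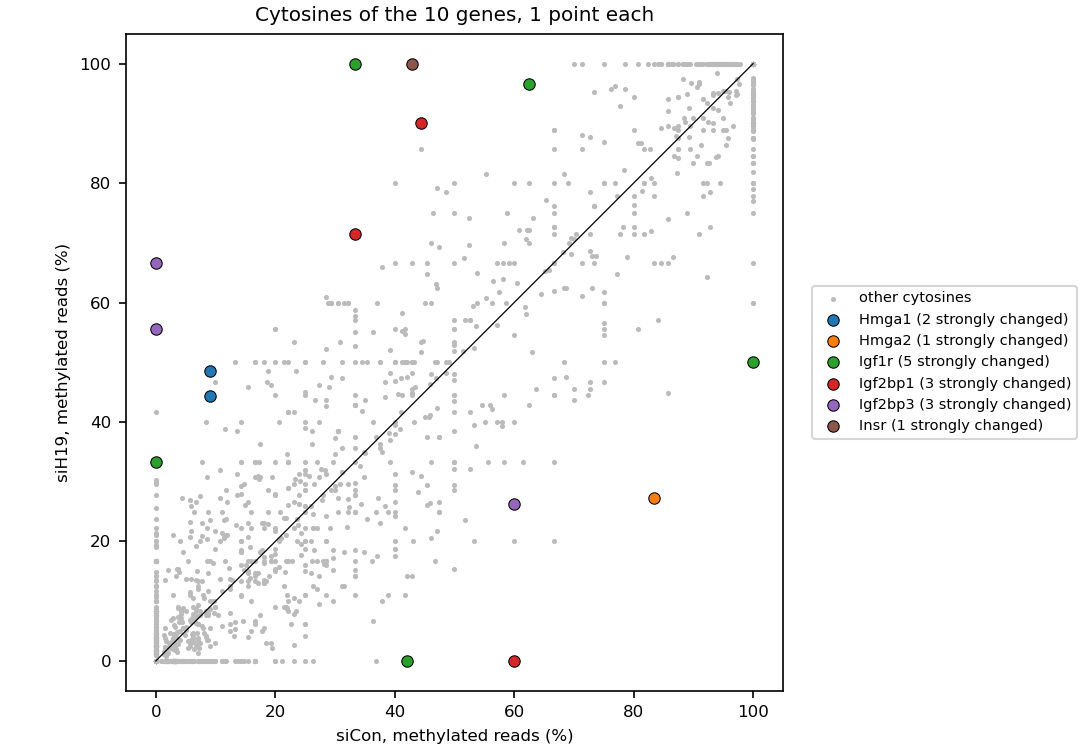
Methylated reads in percent in siH19 against siCon for the 2247 covered cytosines of the 10 genes, with the diagonal as a line and the 15 strongly changed cytosines coloured by gene. Of the coloured points 10 lie above the diagonal and 5 below it.

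The spread within a library gave a scale for the count of cytosines at an unadjusted p-value under 0.05 alone. The 949 CpGs of the 10 genes covered on both strands were compared between their strands within each library. A CpG was counted where Fisher's exact test gave an unadjusted p-value under 0.05, with no minimum difference. In siCon 1.69% of CpGs differed between strands, and in siH19 0.843% did, while libraries differed at 2.85% on the plus strand and 2.21% on the minus strand. In the genome strands differed at 3.51% and 3.28%, more often than libraries did, at 2.55% and 2.52%. Cytosines inside the enzyme sites, left out above, behaved otherwise. At 459 such CpGs of the 10 genes the strands differed at 61.2% in siCon and 60.1% in siH19, and the libraries at 6.10% and 6.97%.

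Other genes of the same pathways were measured in the same way. Of 18 other let-7 targets, 17 promoters and 18 bodies were tested and none was called in either direction. Of 19 genes of insulin and insulin-like growth factor signalling, 16 promoters and 19 bodies were tested and none was called. Of 14 genes of microRNA processing and let-7 control, 12 promoters and 12 bodies were tested and none was called. In the genome 0.606% of promoters and 0.352% of bodies were called, so counts of 0 in these lists are close to the background. Median promoter differences were 0.0611, 0.0155 and 0.101 points in these lists and 0.105 points in the 10 genes, where the median over all promoters was 0.0884 points. The genes with the lowest p in each list are named. Igf2r, the receptor that clears insulin-like growth factor 2, had a promoter at 31.5% in siCon and 39.3% in siH19, a stratified difference of 6.80 points (4.56 to 9.03) with an adjusted p of 1.32e-06 in the exact Mantel-Haenszel test. The body of Igf2 differed by 2.55 points (0.779 to 4.32) with an adjusted p of 0.0997. By the same exact test, promoters of Arid3b and Ago1 differed by -2.03 points (adjusted p = 4.18e-06) and -1.15 points (adjusted p = 0.0353). Those of Nr6a1 and Xpo5 did not pass the exact test, at 1.62 points (adjusted p = 0.0907) and 1.05 points (adjusted p = 0.0625). All were under the 10 points that a call needed. The 5 tested promoters of muscle markers differed by 0.0889 to 4.33 points, with a median of 3.46 points and none with an adjusted p under 0.05 (background 6.82%). Of 8 muscle marker bodies 2 had an adjusted p under 0.05 in the exact Mantel-Haenszel test (background 3.48%), and they are named after their values were seen. The body of Acta1, a muscle actin, differed by 9.11 points (6.00 to 12.2, adjusted exact p = 9.68e-06) and that of Cdh15, a muscle cadherin, by -7.86 points (-12.6 to -3.11, adjusted exact p = 0.0439). The part of such shifts in the results on the 10 genes was not tested.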

How the data were processed

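Reduced representation bisulfite sequencing gave CpG methylation in 2 libraries, 1 per group, grouped by the sample labels. In the deposited files each CpG cytosine and strand had a text field with methylated and total reads as raw counts, and a score that the authors set from the methylated fraction, used here only to check the counts (100% matched in both libraries). The submitters' processing notes name bcl2fastq 1.8.4 and mm10. Alignment was with Bismark, by the authors' account. Removal of duplicate reads was not given in the sources used here. All 6041258 positions on chromosomes fell on CpGs of GRCm38.

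CpG cytosines outside CCGG and TCGA, read 5 or more times in both libraries, were tested by two-sided Fisher's exact tests. Promoters (1 kb to each side of the start), bodies and CpG islands with at least 5 cytosines were tested by exact conditional Mantel-Haenszel tests stratified by cytosine, all with Benjamini-Hochberg adjustment over the genome. Genes came from GENCODE M21 basic. Levels are shares of summed reads with Wilson 95% intervals, which cover counting error only: there were no molecular identifiers, and 1 read covers many cytosines. Median depth over the tested cytosines was 24 in both libraries. The scripts used Python 3.11.15 with numpy 2.4.6, scipy 1.17.1 and numba 0.67.0, and were tested on simulated data and against R 4.3.3.

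The members and lists were chosen with earlier results of these data known. All 10 members were named, with the tested islands, the strongly changed cytosine of lowest p in each direction, and in each other list the 2 genes of lowest p where none was called. Sequences are from RefSeq and GRCm38. No promoter sequence of Igf2bp1 and Insr was used here. Columns of other samples numbered 0.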

Additional observations from a re-analysis of the deposited data

How the results depend on the processing

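No promoter, gene body or CpG island of the 10 genes was called under a read minimum of 10, restriction-site cytosines included, summed strands, repeats or the deepest 1% of cytosines left out, Fisher's exact test on summed reads, the quasi-binomial test, or other windows. Under the quasi-binomial test 0% of each kind was called in the genome, so that count of 0 says nothing about these genes. Under the other settings 0.38% to 2.52% of promoters, 0.199% to 8.44% of bodies and 0.69% to 2.31% of islands were called in the genome. A count of 0 among so few regions is close to these shares. Without a minimum difference 1 promoter (background 6.82%), 1 body (3.48%) and 1 island (5.4%) passed. The 15 strongly changed cytosines of 2247 (0.986% in the genome) became 9 of 1781 at a read minimum of 10 (0.773% in the genome). With strands summed they were 7 of 1329 (0.757% in the genome). At a minimum difference of 25 points they were 36 of 2247 (1.52% in the genome). With restriction-site cytosines included they were 42 of 3390 (1.42% in the genome). The difference over all cytosines of the 10 genes, 0.709 points, was -0.865 points as a share of summed reads and 0.235 points without Hmga1, the latter chosen after seeing the data. As an unweighted mean of cytosine levels that difference was 0.594 points. Hmga1's promoter was higher in siH19 under 11 of 11 settings, by 3.61 to 5.30 points, and passed an adjusted p of 0.05 under 9 of them. Not all of these settings could differ from the main one. Leaving out the minimum difference changes neither the difference nor the adjusted p, and the quasi-binomial test keeps the main difference. The body of Igf2bp2 differed by -0.869 points with summed reads (adjusted p = 0.255 in Fisher's exact test), and the bodies of Hmga2 and Insr turned to -2.67 and -2.89 points. Of 210 comparisons of a gene's value with an alternative, 194 kept their direction and side of the threshold or stayed within the interval. These include the setting without a minimum difference, under which no gene's value could change. The 2 changes that summing reads brought in Dicer1 and Lin28a are given in the report. No paired analysis was possible because each group had 1 library. No library could be left out for the same reason.

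With 1 library per group no error between cultures was available, depth set only the counting error, and from 5.76% (Igf1r) to 35.9% (Hmga1) of a gene's CpGs were covered, so most CpGs of these genes were not measured.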
